A study of Mus musculus with 6 samples.

Results

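miR-335 is a microRNA (miRNA) whose hairpin, Mir335, lies inside the imprinted gene Mest. Its mature products were taken by name from a deposited table of small RNA counts from mouse heart cardiomyocytes, and both arms of the hairpin, miR-335-3p and miR-335-5p, were found among 1974 mature miRNAs. The samples were C57BL/6 hearts of lncSync knockout mice (LncSync-/-, lacking a long non-coding RNA) and of wild-type mice, taken from adults or from embryos at e13.5 (days after conception). There were 2 adult knockout, 2 adult wild-type, 1 e13.5 knockout and 1 e13.5 wild-type libraries, all labelled as cardiomyocytes. The labels do not say how cells were isolated, how the lncSync allele was made, or whether the adult replicates came from separate animals. miR-335 was singled out with its counts in all 6 libraries known, and in that sense was chosen by those values, so its levels, folds and arm shares are described here without a test.

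An miRNA hairpin is cut by Drosha and Dicer into a duplex of a 5p and a 3p strand, and either strand can be loaded onto an Argonaute protein, where bases 2 to 8 (the seed) pair with target mRNAs. Mest, also called Peg1 or mesoderm-specific transcript, encodes a protein of the alpha/beta-hydrolase family, is expressed from the paternal allele, and is abundant in embryonic mesoderm. It belongs to a group of imprinted genes of fetal growth, with H19, Igf2 and Dlk1, that are turned down in many organs after birth. In human breast cancer cells miR-335 has been described as a suppressor of metastasis.

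The sequences of both arms are shown because the results turn on the balance between them, and the hairpin because it shows how they face each other. They come from RefSeq (GRCm38.p6, the mm10 assembly), 5′ to 3′. In the arms the seed is in capitals, and in the hairpin the capitals mark the 5p arm and then the 3p arm.
miR-335-3p: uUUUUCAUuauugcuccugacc
miR-335-5p: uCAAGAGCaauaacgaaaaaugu
Mir335 hairpin: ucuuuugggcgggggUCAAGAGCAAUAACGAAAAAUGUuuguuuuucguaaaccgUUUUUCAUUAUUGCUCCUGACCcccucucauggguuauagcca

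The hairpin spans 98 bases on the plus strand of chromosome 6, at chr6:30741299-30741396 (mm10), with the 5p arm at 30741314 to 30741336 and the 3p arm at 30741354 to 30741375. It lies on the same strand as Mest (30723547 to 30748465 in GENCODE M21), within an intron at 30740825 to 30742140. That intron is present in 7 of 11 annotated Mest transcripts, and no Mest exon overlaps the hairpin. The fold of lowest energy given by RNAfold pairs 18 of the 23 bases of the 5p arm with the 3p arm. Among 1679 mature mouse miRNAs in the RefSeq table, 0 others carry the seed of the 3p arm and 0 others that of the 5p arm, so neither arm has a seed family there. The closest stretch of any other hairpin in that table had 7 mismatches to the 3p arm and 8 to the 5p arm, so no near-identical copy that could share its reads was found there. Mest mRNA was not measured in these libraries.

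Adult libraries held between 14347091 and 17933518 mature counts, whereas the embryonic ones held 2671957 (knockout) and 8944552 (wild type). Both arms passed the filter on low counts in every comparison. The fewest counts of an arm in any library were 553. For the 3p arm on library totals the adult replicates of each genotype differed by less than their counting intervals. Levels are given in CPM, mature counts scaled to the same library total, and also after TMM scaling, which divides each library by a factor that centres most miRNAs. These factors ran from 0.567 in adult knockout replicate 2 to 2.17 in the e13.5 knockout library, so the scale matters for comparisons between stages.

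The 3p arm was far lower in adult than in e13.5 libraries, where it was one of the abundant miRNAs. Its CPM was 38.5 and 39.1 in adult knockout libraries, 65.6 and 68.2 in adult wild-type libraries, 5409 in the e13.5 knockout and 4824 in the e13.5 wild type. Every adult library was far below both e13.5 libraries, and the adult groups did not overlap each other. All adult libraries lay below both e13.5 libraries for 44.2% of all miRNAs tested. Both adult knockout libraries lay below both adult wild-type libraries for 20.8%. By rank among detected miRNAs it was 185 of 618 and 167 of 825 in adult knockout and 159 of 897 and 153 of 768 in adult wild-type libraries. At e13.5 it was 28 of 810 in the knockout and 19 of 912 in the wild-type library. On the TMM scale it stood at 54.5 ± 20.4 CPM in adult knockout and 81.5 ± 12.4 CPM in adult wild-type libraries (SD, n = 2 each), against 2497 CPM in the knockout and 3885 CPM in the wild-type library of e13.5.

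The 5p arm varied far less. Its CPM was 123 and 149 in adult knockout libraries, 125 and 60.3 in adult wild-type libraries, 320.0 in the e13.5 knockout library and 573 in the e13.5 wild-type library. On library totals the 4 adult values lay below both e13.5 values, as for 44.2% of all miRNAs tested, while the adult genotypes overlapped. After TMM scaling the stages overlapped as well. The scaled values were 128.2 and 263 CPM in adult knockout, 139 and 79.8 CPM in adult wild-type, 148 CPM in e13.5 knockout and 461 CPM in e13.5 wild-type libraries. Only the e13.5 wild-type library then stood above all the others.

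**Figure D1:**
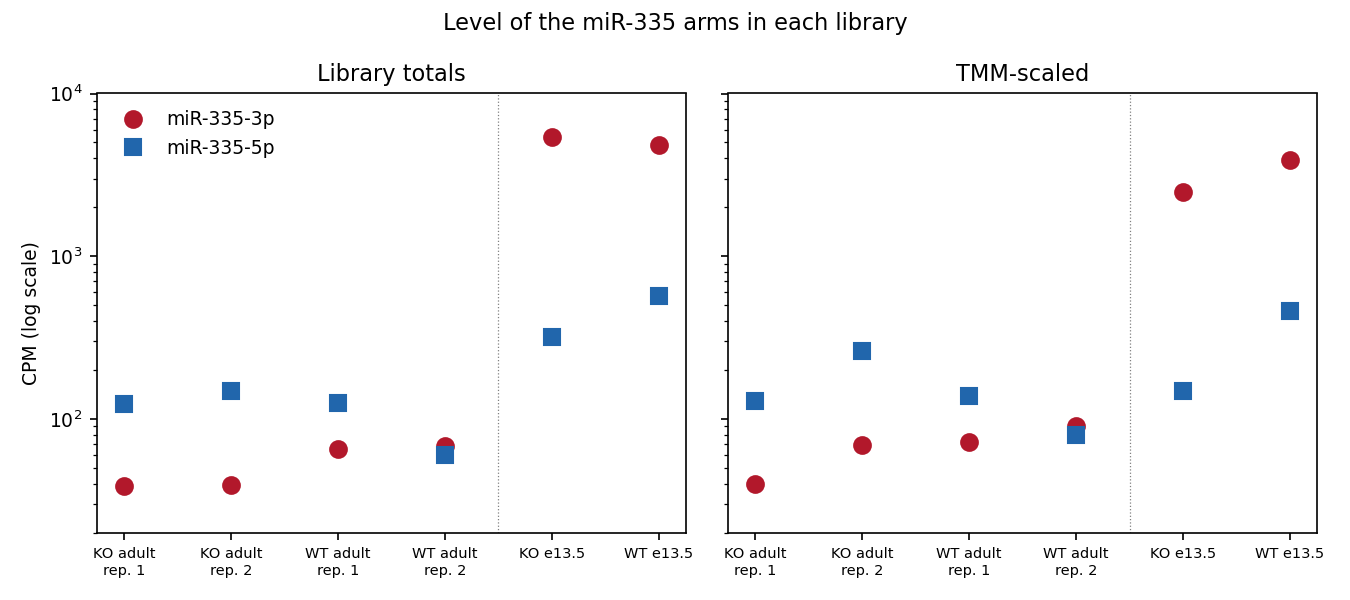
Level of each miR-335 arm in the 6 libraries, in CPM on a log axis, from library totals (left) and after TMM scaling (right); vertical lines, mostly hidden by the points, are 95% Poisson intervals of the counts. The 3p arm lies between 38.5 and 68.2 CPM in adults and between 4824 and 5409 CPM at e13.5 on library totals, whereas the 5p arm lies between 60.3 and 573 CPM in all 6 libraries.

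Ordered by level, the 3p arm ran, on library totals, from e13.5 knockout through e13.5 wild type and adult wild type to adult knockout. The order of the e13.5 genotypes turned round after TMM scaling, and with 1 library each their spread is unknown. Adult wild type and adult knockout, at 66.9 ± 1.80 and 38.8 ± 0.375 CPM (SD, n = 2 each), were farther apart than their replicates on library totals. For the 5p arm the order on library totals was e13.5 wild type, e13.5 knockout, adult knockout and adult wild type. After TMM scaling adult knockout, at a mean of 195 CPM, stood above e13.5 knockout at 148 CPM. The adult groups on library totals, at 136 ± 18.3 CPM in adult knockout and 92.7 ± 45.8 CPM in adult wild type (SD, n = 2 each), did not differ beyond their spread.

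The first comparison set adult against e13.5 libraries, with genotype as a term over all 6 libraries. The 3p arm had a log2 fold of −5.55 (SE 0.45) and the 5p arm one of −1.02 (SE 0.68), adult over e13.5, on the TMM scale. The median over all 679 miRNAs tested was 0.06, and 78 miRNAs had a lower fold than the 3p arm and 278 a lower fold than the 5p arm. In this comparison 57.7% of all miRNAs passed the edgeR quasi-likelihood test at a Benjamini-Hochberg adjusted p of 0.05, 28.4% higher and 29.3% lower in adults. Adults were the lower stage in 50.8% of the calls under TMM, in 64.4% when median-of-ratios factors replaced it and in 68.7% on library totals alone. Relative to the median of all miRNAs the 3p fold was −5.61 under TMM, −5.62 under median-of-ratios scaling and −5.75 on library totals, and the 5p fold was −1.09, −1.07 and −1.06. All 4 adult libraries lay below both e13.5 libraries for 44.2% of the miRNAs on library totals and for 37.1% after TMM scaling. Both arms of miR-335 were among the first set, and of the 2 arms the 3p arm alone was in the second.

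Within each genotype the 3p arm was far lower in adults. On library totals it was 139.4-fold lower in knockout and 72.1-fold lower in wild-type libraries. With TMM scaling the genotypes were more alike. The log2 fold was then −5.99 (SE 1.02) in a fit of the knockout libraries alone and −5.58 (SE 0.37) in a fit of the wild-type libraries alone. In the same fits, with TMM factors set within each genotype, the 5p arm had −0.07 (SE 1.002) in knockout and −2.08 (SE 0.40) in wild-type libraries. Its value over both genotypes thus averages unequal parts. With the TMM factors of all 6 libraries the log2 ratio of its knockout means was 0.40, of the other sign. Without the e13.5 wild-type library the 5p fold was 0.37, and without the e13.5 knockout library it was −2.08. Each of these fits rests on 1 embryonic library, and the difference between genotypes was not tested. The sum of both arms was 175 ± 18.6 CPM in adult knockout and 160 ± 44.1 CPM in adult wild-type libraries (SD, n = 2 each), against 5729 CPM in e13.5 knockout and 5396 CPM in e13.5 wild-type libraries. Summed counts were thus 32.8-fold lower in adult than in e13.5 knockout libraries and 33.8-fold lower in adult than in e13.5 wild-type libraries on library totals. After TMM scaling these ratios were 10.6 in knockout and 22.8 in wild-type libraries.

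The split between the arms needs no scaling, since both are counted in the same library, and the arms differ by 1 base in length. The 3p arm made up 23.8% of miR-335 counts in adult knockout replicate 1 (exact 95% interval 22.1 to 25.6) and 20.8% in replicate 2 (19.4 to 22.2). It held 34.4% in adult wild-type replicate 1 (32.8 to 36.0) and 53.1% in replicate 2 (50.9 to 55.2). At e13.5 it held 94.4% in the knockout library (94.0 to 94.8) and 89.4% in the wild-type library (89.1 to 89.7). The more abundant arm was therefore 5p in 3 of 4 adult libraries and 3p in both e13.5 libraries, with adult wild-type replicate 2 close to an even split. Intervals cover counting error only.

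**Figure D2:**
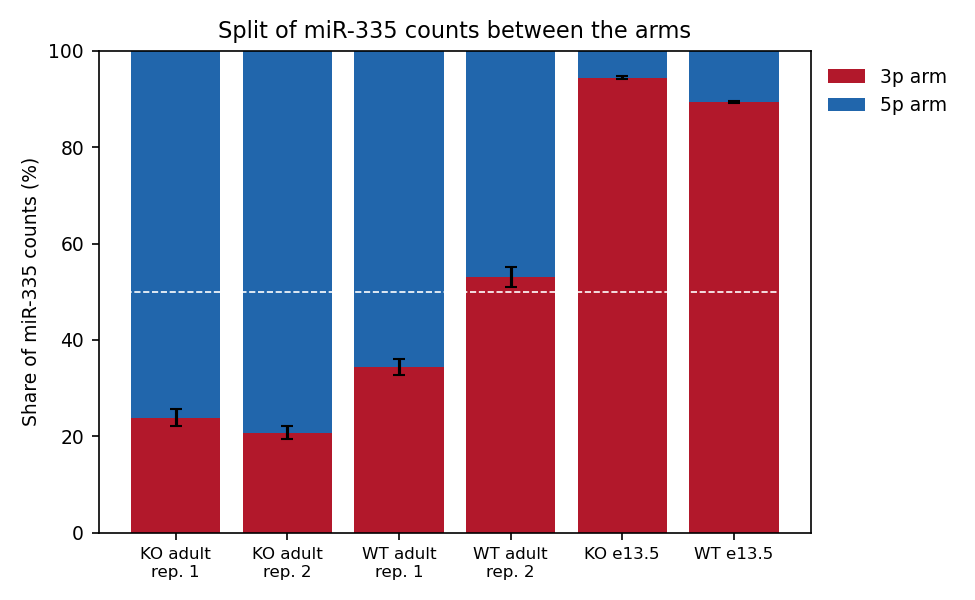
Split of miR-335 counts between the 3p arm (red) and the 5p arm (blue) in each library, in percent of both arms; black bars are exact 95% binomial intervals of the 3p share and the dashed line marks 50%. The 3p arm holds 20.8% to 53.1% in the 4 adult libraries and 89.4% to 94.4% in the 2 e13.5 libraries.

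Expressed as a log2 ratio of 3p to 5p counts, the balance was −1.68 and −1.93 in adult knockout libraries, −0.93 and 0.18 in adult wild-type libraries, 4.08 in the e13.5 knockout and 3.07 in the e13.5 wild-type library. On average the 3p share was 33.0% ± 14.6 over the 4 adult libraries and 91.9% ± 3.56 over the 2 embryonic libraries (SD), a difference of −58.9 percentage points. For comparison, 135 hairpins had both arms in the table and at least 50 counts over the arms in every library. Over these the median absolute difference between stages was 4.18 percentage points, with 90% of them at or under 45.9, and miR-335 had the 10th largest. This rank depends on the scale, since shares near 0% or 100% have little room in percentage points. As a log2 ratio of the arms the stage difference was −4.67 for miR-335. It was larger in size for many other hairpins, such as miR-542 (−10.2), miR-151 (−9.72) and let-7i (7.81). Adult and e13.5 libraries did not overlap in 3p share for 57.8% of the 135 hairpins, and adults were the lower stage in 23.0%. In 22 of the 135 hairpins the arm with the higher mean share was not the same at both stages, and miR-335 was 1 of these.

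The second comparison asked about lncSync itself, in the adult libraries where each genotype has a replicate. The 3p arm had a log2 fold of −0.52 (SE 0.47) and the 5p arm one of 0.90 (SE 0.54), adult knockout over adult wild type, with a median of 0.08 over 544 miRNAs tested. Here 0.735% of miRNAs passed the edgeR test, 4 in all. Without knockout replicate 1 the calls were 35 of 603, and without knockout replicate 2 they were 47 of 645. Lower 3p levels in both knockout libraries than in both wild-type libraries were seen on library totals and after TMM scaling, as for 20.8% and 15.4% of all miRNAs. The 5p values of the genotypes overlapped on both scales. Leaving out knockout replicate 1 raised the folds of both arms, and leaving out knockout replicate 2 lowered both. Without knockout replicate 1 the 3p fold was −0.19 and the 5p fold 1.32, and without knockout replicate 2 they were −1.02 and 0.22. Without wild-type replicate 2 the 5p fold was 0.43. Summed over the arms, adult knockout libraries had 162 and 188 CPM and adult wild-type libraries 191 and 128.4 CPM, which overlapped. The sum of the epithelial list (miR-200 family and miR-141) was also lower in both knockout libraries, at 42.3 and 24.5 CPM in adult knockout and 48.4 and 54.8 CPM in adult wild-type libraries. Its arms did not move together. miR-200b-3p had 1.05 and 5.11 CPM in adult knockout and 16.2 and 21.3 CPM in adult wild-type libraries. For miR-200c-3p, most of the sum in knockout replicate 1, the values overlapped, at 38.8 and 14.25 against 22.0 and 19.1 CPM. Of its 5 tested arms 0 passed by edgeR or DESeq2 after adjustment. An unadjusted p under 0.05 was reached by 0 arms in edgeR with TMM and by 1 with median-of-ratios factors. It was reached by 2 in edgeR on library totals and by 2 in DESeq2, against 16 and 21 of all 544 miRNAs. These arms were all lower in knockout. The median log2 fold was −1.09 with TMM, and the part of these cells in the 3p values was not tested. The sums of the other cell type lists overlapped between adult genotypes.

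Adult genotypes differed more in the split of the arms than in the sum. The 3p share averaged 22.3% ± 2.16 in adult knockout and 43.7% ± 13.2 in adult wild-type libraries (SD, n = 2 each), a difference of −21.4 percentage points. Both knockout libraries lay below both wild-type libraries. Such a gap was found in either direction for 14.8% of the 135 hairpins and in this direction for 8.15%. The difference was the second largest in size among them, where the median was 0.588 percentage points. Leaving out wild-type replicate 2 brought it to −12.1 percentage points, and leaving out wild-type replicate 1 to −30.8. With 2 libraries per genotype, 1 wild-type library thus sets much of its size.

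At e13.5 the knockout library had a log2 fold of −0.64 for the 3p arm and −1.64 for the 5p arm over the wild-type library after TMM scaling. Over the 565 miRNAs that reached 10 counts in 1 of these libraries or both, the median was −0.41, so the values relative to it were −0.23 and −1.23. On library totals the 3p fold was 0.17 and the 5p fold −0.84, with a median of 0.36, which gives −0.19 and −1.20 relative to it. The 3p share was 5.03 percentage points higher in the knockout than in the wild-type library. With 1 library per genotype there is no replicate check. On library totals the erythroid list (miR-451a, miR-144 and miR-486a) summed to 14320 CPM in the e13.5 knockout and 748 CPM in the wild-type library. Its arm miR-144-3p was the least apart, at 33.7 and 23.1 CPM. On this scale, where the median log2 fold was 0.36, the liver, neuronal, leukocyte and epithelial sums were also higher in knockout. Cardiomyocyte markers were lower, at 98600 against 146200 CPM, as were endothelial markers and the fibroblast and smooth muscle list (214900 against 355800 CPM). TMM divides by 2.17 in the knockout and 1.24 in the wild-type library, which turns round the order of the leukocyte and epithelial sums. The part of these cell types in the miR-335 values was not tested.

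**Figure D3:**
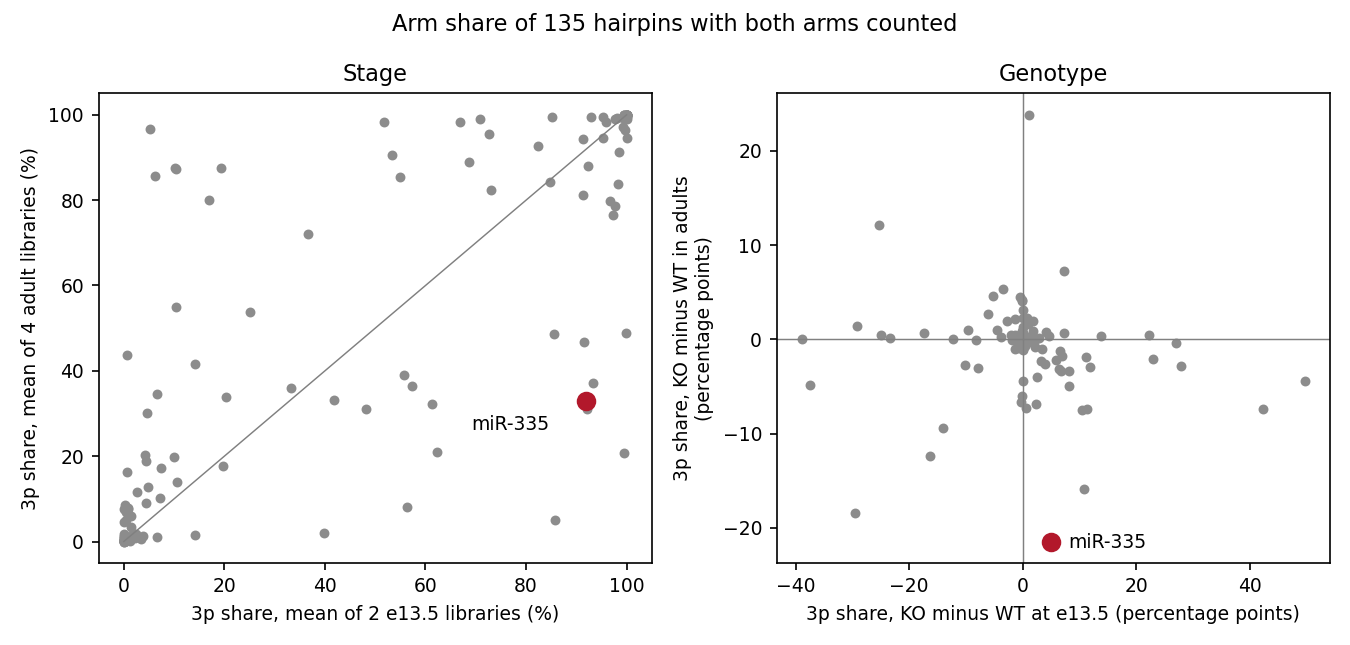
Share of the 3p arm for 135 hairpins (grey) with miR-335 in red. Left, adult mean against e13.5 mean in percent, with a line of equal shares; right, knockout minus wild type in adults against the same difference at e13.5, in percentage points. miR-335 lies at 33.0% in adults and 91.9% at e13.5, and at −21.4 points in adults and 5.03 points at e13.5.

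Other imprinted miRNAs were read beside miR-335 for the stage comparison. From H19 (miR-675), Igf2 (miR-483) and the Gnas region (miR-296 and miR-298), 6 of 7 tested arms fell in adults and 1 rose by the edgeR test. miR-483-3p had 1.46 and 0.625 CPM in adult knockout and 2.56 and 2.80 CPM in adult wild-type libraries, against 575 CPM in e13.5 knockout and 207 CPM in e13.5 wild-type libraries. The arm that rose was miR-296-5p (log2 fold 4.73, SE 0.995, edgeR adjusted p = 0.00383), while its partner miR-296-3p fell (−7.81, SE 0.89, edgeR adjusted p = 0.000174). This pair is named after its values were seen. In the Dlk1-Dio3 cluster, which is expressed from the maternal allele, 59 of 77 tested arms fell, 0 rose and 18 did not pass by edgeR, with a median log2 fold of −4.62. The background for falling was 29.3%, and 0 arms were higher at an unadjusted p under 0.05. By DESeq2 66 of the arms fell and 0 rose, against 36.7% and 23.1% of all miRNAs. In adult knockout over wild-type libraries 0 arms of either list passed by edgeR or DESeq2, and 0 had an unadjusted p under 0.05. The median log2 folds were −1.24 over 3 arms of the first list and −0.42 over 52 arms of the cluster. On library totals the cluster sum was lower in both knockout libraries, as were 20.8% of single miRNAs. The cluster summed to 287.7 and 309.1 CPM in adult knockout and 507.7 and 425.0 CPM in adult wild-type libraries. The first list had 8.573 and 3.521 CPM in adult knockout and 8.587 and 11.55 CPM in adult wild-type libraries. Its knockout replicate 1 and wild-type replicate 1 were thus level.

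The miRNAs whose profile over the 6 libraries was most like that of the 3p arm came largely from that cluster. Likeness was the root-mean-square difference between centred log2(TMM-scaled CPM + 1) profiles, over 316 miRNAs with a mean of at least 10 CPM, where the median distance from the 3p arm was 3.16. miR-379-5p, from the Dlk1-Dio3 cluster, was nearest at 0.11. It had 47.1 and 81.2 scaled CPM in adult knockout, 74.2 and 90.5 in adult wild-type, 2488 in e13.5 knockout and 4566 in e13.5 wild-type libraries, against 40.1, 68.9, 72.7, 90.2, 2497 and 3885 for miR-335-3p in the same order. On library totals miR-379-5p had 45.31 and 46.06 CPM in adult knockout and 66.91 and 68.35 CPM in adult wild-type libraries. miR-677-5p (0.23), miR-323-3p (0.25), miR-380-5p (0.26) and miR-495-3p (0.40) followed, and of these miR-323, miR-380 and miR-495 are also Dlk1-Dio3 miRNAs. The last 4 were at or under 4.20 scaled CPM in adults, where the pseudocount of 1 compresses differences. The measure is taken over 6 libraries that share stage, depth and scaling.

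Profiles nearest to the 5p arm were less alike. They were miR-374b-5p (0.46), miR-199a-5p (0.48), miR-872-5p (0.49), miR-192-5p (0.53) and miR-9-5p (0.59), with a median distance of 1.71. Their stage log2 folds ran from −1.57 to −0.34 on the TMM scale, as follows from how they were chosen. The distance between the 2 arms of miR-335 was 2.31. In this measure 115 other miRNAs lay nearer to the 3p arm than the 5p arm did, and 230 lay nearer to the 5p arm than the 3p arm did.

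**Figure D4:**
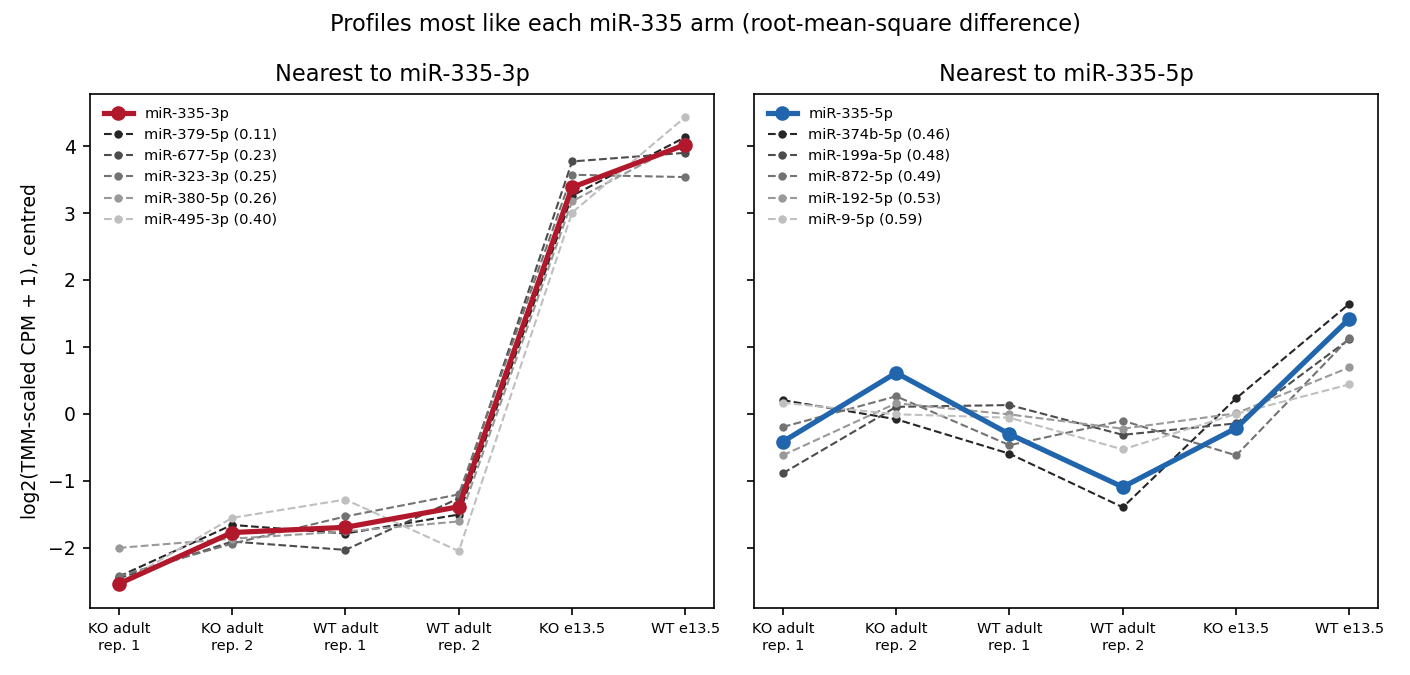
Centred log2(TMM-scaled CPM + 1) of the 3p arm (left, red) and the 5p arm (right, blue) with the 5 nearest miRNAs of each (grey, root-mean-square difference in brackets), over the 6 libraries; lines only join the points of 1 miRNA. miR-379-5p runs 0.11 from the 3p arm, and the nearest profile to the 5p arm is 0.46 away.

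On chromosome 6 the nearest annotated miRNA hairpins lie far outside Mest. Mir29a is 321.3 kb and Mir29b-1 321.6 kb beyond Mir335, and Mir183, Mir96 and Mir182 are 571.6, 571.7 and 575.3 kb before it, all on the minus strand. By the edgeR test 4 of 7 tested arms of these hairpins rose in adults and 3 fell, against 28.4% and 29.3% of all miRNAs. miR-29a-3p, which represses collagen and other matrix genes, had 18390 and 14380 CPM in adult knockout and 23740 and 18680 CPM in adult wild-type libraries, against 57.6 CPM in e13.5 knockout and 54.7 CPM in e13.5 wild-type libraries. miR-182-5p and miR-183-5p, of a cluster known from sensory organs, fell with log2 folds of −6.05 (SE 0.52) and −7.02 (SE 0.68). The miRNAs on one side of Mir335 thus differed between stages in the opposite direction to the 3p arm, and those on the other side in the same direction. Reads of miR-29b-3p can also come from Mir29b-2 on another chromosome.

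**Figure D5:**
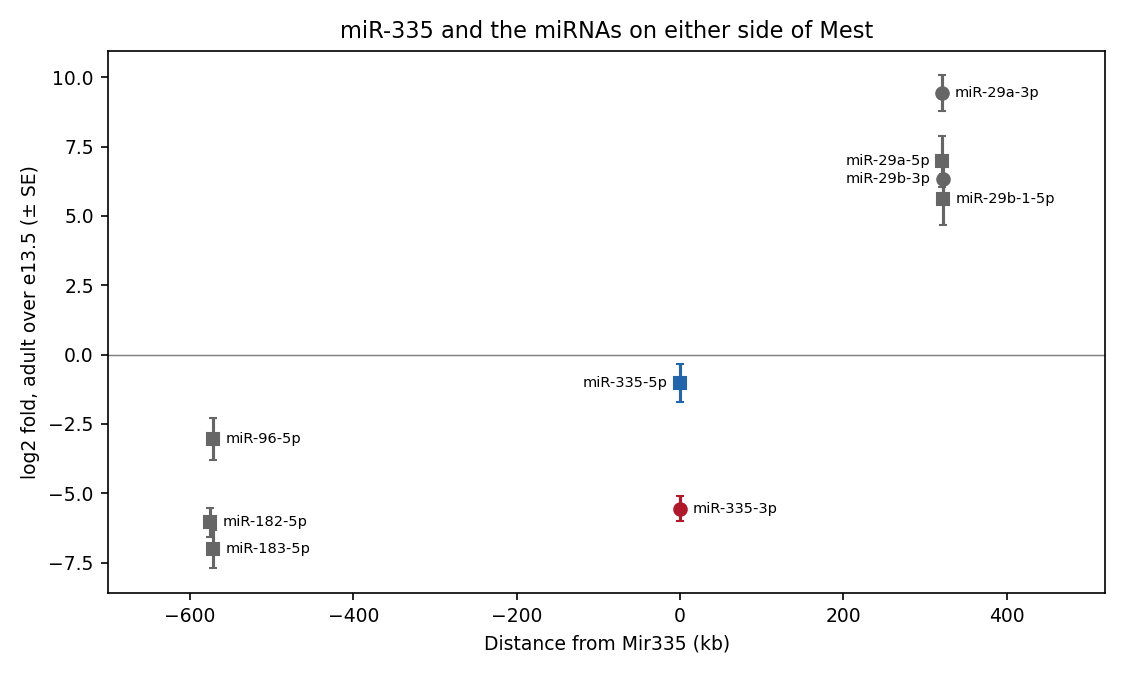
Log2 fold (adult over e13.5, TMM-scaled edgeR fit, bars are SE) of the miR-335 arms (3p red, 5p blue) and of arms from the neighbouring hairpins (grey), by distance from Mir335 in kb; circles are 3p arms and squares 5p arms. The arms after Mir335 lie between 5.60 and 9.43, those before it between −7.02 and −3.05, and miR-335-3p at −5.55.

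Markers of cell types moved between the stages. In bulk samples fewer cells of a type and less RNA per cell cannot be told apart. Cardiomyocyte markers (arms of miR-499, miR-208a, miR-208b, miR-133a, miR-133b and miR-1a) summed to 281700 to 395300 CPM in adults and 98600 to 146200 CPM at e13.5. At e13.5 nearly all of this was miR-1a-3p, at 94850 CPM in the knockout and 140000 CPM in the wild-type library. miR-133a-3p had 121600 to 182900 CPM in adults and 1479 to 1925 CPM at e13.5. In the e13.5 knockout and wild-type libraries miR-208a-5p had 1 and 20 counts, whereas its partner miR-208a-3p had 33 and 552. The level of miR-208a-3p was 60.5 to 141.3 CPM in adults and 12.35 to 61.71 CPM at e13.5. Of the 9 tested arms 7 rose in adults, miR-208b-3p fell and miR-1a-3p did not pass. With median-of-ratios factors 4 rose, and on library totals 4 rose. Over all miRNAs TMM gave 28.4% that rose and 29.3% that fell, median-of-ratios factors gave 19.6% and 35.5%, and library totals gave 17.7% and 38.7%. The fibroblast and smooth muscle list summed to 74830 to 117700 CPM in adults and 214900 to 355800 CPM at e13.5, nearly all of it miR-143-3p. Of its 9 tested arms both arms of miR-145a rose, miR-199b-5p fell and 6 did not pass, and 4 arms fell with either other scaling.

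Against the same background of 28.4% higher and 29.3% lower, both arms of miR-126a (endothelial) rose with TMM, but 0 passed with the other scalings. Of 8 leukocyte arms 5 rose, and both miR-142a arms and miR-223-5p did not pass. Epithelial miR-200 family arms fell in 6 of 7 cases, all but miR-141-3p, with a sum of 24.5 to 54.8 CPM in adults and 1453 to 2040 CPM at e13.5. miR-122-5p, the liver miRNA, also fell (log2 fold −5.10, edgeR adjusted p = 0.000576). Of the erythroid arms both of miR-486a rose, miR-451a and miR-144-3p fell and miR-144-5p did not pass, and of the neuronal arms miR-9-3p rose and 3 did not pass. Of the neuronal list miR-124-3p was at 0 counts in both e13.5 libraries, whereas miR-128-3p had 2298 and 1023 CPM and miR-9-5p 304 and 237 CPM in the e13.5 knockout and wild-type libraries. The remaining defining miRNAs of these lists had counts at e13.5. The part of these cell types in the miR-335 levels was not tested, and the labels give no batch, so stage and library preparation cannot be told apart.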

How the data were processed

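Small RNA libraries were made from TRIZOL-extracted, DNase-treated total RNA with the NEXTFLEX Small RNA kit, per the labels' protocols. The authors deposited 1 table of raw read counts with 1234 hairpin and 1974 mature rows and 1 column per library (0 columns of other samples). Reads were placed on mm10, per the submitters' processing notes. Which aligner and counter were used, and how multi-mapping reads were handled, is not stated in the labels or headers used here. Molecular identifiers are not stated.

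Mature rows with the same reads (within 1% of their total, at least 20 counts, at least 3 libraries) were merged, which left 1952. Both miR-335 arms stayed separate. Adult and e13.5 libraries were compared over all 6 libraries with genotype as a term, and adult genotypes over the 4 adult libraries, with edgeR 4.0.16 in R 4.3.3 (TMM, filterByExpr at a minimum count of 10, quasi-likelihood test, Benjamini-Hochberg adjustment over all tested), after tests on simulated data. In the simulated data 19.3% of log2 changes of 2 were recovered between stages and 23.7% between adult genotypes. Of log2 changes of 4, 89.4% and 91.8% were recovered. A list with 0 calls may therefore still hold changes. Since nothing says that replicates are separate animals, p-values reflect library-to-library spread that may be technical. At e13.5 log2 folds used a prior count of 2. The hairpin was folded with RNAfold 2.7.2. Median-of-ratios factors, library totals, no filter, unmerged rows, DESeq2 1.42.0, fewer libraries and a replicate block were tried. miR-335 and the miRNA lists were chosen with earlier results of these data known. The named miRNAs were both arms, the 5 profiles nearest to each, and the 3 most abundant tested members of each list.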

Additional observations from a re-analysis of the deposited data

Results flagged for a closer look

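The miR-335 arm split differed between genotypes in opposite directions at the 2 stages. The 3p share in knockout minus wild-type libraries was −21.45 percentage points in adults, with both knockout libraries below both wild-type libraries, and 5.03 percentage points at e13.5, with 1 library each. In size the e13.5 difference was only the 39th largest of the 135 hairpins. The level of the 3p arm on library totals did the same, at a log2 ratio of −0.79 in adults and 0.17 at e13.5, but after TMM scaling it was lower in knockout at both stages. The difference between stages was not tested in either case.

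Hairpin reads that fall outside both mature arms are not part of the comparisons. They were 0.552% of the Mir335 hairpin counts in the e13.5 knockout library (85 of 15393, exact 95% interval 0.441 to 0.682) and 0.188% in the e13.5 wild-type library (91 of 48360, 0.152 to 0.231). In adults they were 0.429% and 0.121% in knockout and 0.204% and 0.323% in wild-type libraries, which overlapped. The groups of 1 or 2 libraries are too small to look for a single sample far from the rest.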

How the results depend on the processing

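The 3p stage log2 fold was −6.34 with median-of-ratios factors, −6.67 with library totals and −6.34 with DESeq2, and −6.22 to −5.55 when each library was left out. The 5p stage fold was −1.78, −1.99 and −1.78 under the first 3, −2.08 with wild-type and −0.07 with knockout libraries alone, and −2.08 to 0.37 when each library was left out, with the 0.37 and its turned sign without the e13.5 wild-type library. Scaling moved the median of all miRNAs from 0.06 to −0.72 (median-of-ratios) and −0.93 (library totals), and relative to it the 5p fold was −1.09 with TMM, −1.07 and −1.06 under these scalings, −2.52 with wild-type and −0.39 with knockout libraries alone, and −0.28 once the e13.5 wild-type library was dropped. The same scalings moved the share of stage calls that were lower in adults from 50.8% to 64.4% and 68.7%. Stage calls, 392 with all libraries, were 231 with knockout libraries alone and 261 to 381 with each library left out. Adult genotype calls, 4 in all, were 9 without a filter and 5 to 47 with each library left out: 35 without knockout replicate 1 and 47 without replicate 2. Leaving out each adult library gave genotype folds of −1.02 to −0.19 for the 3p arm and 0.22 to 1.34 for the 5p arm, and differences in 3p share of −30.78 to −12.11 points between adult genotypes and −65.56 to −54.79 between stages. The e13.5 genotype folds were −0.50 (3p) and −1.50 (5p) with median-of-ratios factors, and 0.17 (3p, turned sign) and −0.84 (5p) with library totals. Replicate numbers in the labels name no shared animal or day, and deviations of same-numbered adult libraries had a correlation of 0.0091 over 544 miRNAs. With the replicate block the adult fit called 5, with folds of −0.56 for the 3p arm and 0.87 for the 5p arm. Where 1 library is left in an arm it is assumed to vary like the others. All other settings kept the direction of the miR-335 values. Depth limited little here, since each arm had at least 553 counts per library.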
